A study of Mus musculus with 6 samples.

Results

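The alpha and beta globins are the 8 mouse genes Hbb-y, Hbb-bh1, Hbb-b2, Hbb-b1, Hbb-bt, Hba-a1, Hba-a2 and Hba-x, of which 6 of the 18192 genes measured here have probe sets of their own, 11 of 45037 in all. A probe set counted as a member when GEO's platform annotation gave it exactly 1 of these symbols. The family was selected on the difference between EGFP-positive and EGFP-negative arrays, in which Hbb-y was already known to be among the large rises, so the differences of its members are a description and no p-value is given for them. Hbb-y and Hbb-bh1 had 3 probe sets each, Hbb-b2 had 2, and Hba-a1, Hba-a2 and Hba-x had 1 each. Hbb-b1 and Hbb-bt had none of their own. Another 4 probe sets are annotated to several adult globins at once. They are no members, and their values are given beside the members because the brightest adult signals were there.

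The study asked what forced expression of EVI1, the zinc finger transcription factor encoded by Mecom, does to gene expression in blood progenitors. Lineage-negative haematopoietic progenitors (cells depleted of mature blood cells) of C57BL/6J background carried Rosa26rtTA, a doxycycline-dependent transactivator placed in the ubiquitously active Rosa26 locus. The EGFP-positive group (3 arrays) had been transduced with pRRL.TET.EVI1.IRES.EGFP, a lentiviral vector that makes EVI1 and EGFP from 1 transcript under doxycycline (1 µg/ml, added on the day after transduction), and was sorted 20 hours later for high EGFP. The EGFP-negative group (3 arrays) is called untransduced in its labels. The series' design text instead has it sorted as negative or low from the same procedure, with doxycycline at 1 µg/ml and the sort 20 hours later. All cells grew in mouse stem cell factor (50 ng/ml), mouse interleukin-3 (20 ng/ml), human Flt3 ligand (50 ng/ml) and human interleukin-11 (50 ng/ml), and no erythropoietin is listed. An empty vector control is not among these groups, so transduction, sorting by EGFP and EVI1 cannot be told apart. The labels do not say whether replicates are separate animals or cultures. P-values therefore cover the spread among these 6 samples alone, and that spread may be technical.

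Haemoglobin is a tetramer of alpha-like and beta-like chains, each holding a haem. In the mouse, Hbb-y and Hbb-bh1 (beta-like) and Hba-x (zeta, alpha-like) are used by the primitive red cells of the yolk sac, and definitive red cells of fetal liver and marrow use the adult beta genes together with Hba-a1 and Hba-a2. The adult genes are switched on late in red cell maturation under GATA1, KLF1 and TAL1, while BCL11A and its partners keep the embryonic beta-like genes silent. Depletion of lineage-positive cells commonly removes the nucleated red cells in which these transcripts are most abundant.

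The proximal promoters are shown because Hbb-y, the adult genes, whose shared probe sets differed between the groups, and the embryonic Hba-x, which stayed under background, carry different arrangements of the elements known from globin promoters. The sequences are the 120 bases just before the RefSeq transcript start of build GRCm38.p6, 5′ to 3′ on the gene's own strand. Capitals mark CACCC (the box bound by KLF1), GATAA (the core bound by GATA1), CCAAT and TATAA, on either strand, and adjoining or overlapping matches run together.

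Hbb-y, minus strand, chr7:103853208-103853327: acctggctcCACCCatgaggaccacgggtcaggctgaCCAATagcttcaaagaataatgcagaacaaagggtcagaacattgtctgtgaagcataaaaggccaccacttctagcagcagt
Hbb-bt, minus strand, chr7:103813924-103814043: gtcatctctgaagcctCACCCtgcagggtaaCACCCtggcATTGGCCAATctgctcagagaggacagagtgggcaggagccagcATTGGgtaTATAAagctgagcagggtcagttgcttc
Hba-a1, plus strand, chr11:32283552-32283671: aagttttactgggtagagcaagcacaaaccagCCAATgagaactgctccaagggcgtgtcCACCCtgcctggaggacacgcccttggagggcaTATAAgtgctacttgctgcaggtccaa
Hba-x, plus strand, chr11:32276480-32276599: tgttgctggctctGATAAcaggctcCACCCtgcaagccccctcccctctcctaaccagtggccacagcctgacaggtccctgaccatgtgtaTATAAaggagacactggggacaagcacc

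All 4 stretches hold CACCC, at 111 bases before the start in Hbb-y, at 104 and 89 in Hbb-bt, at 60 in Hba-a1 and at 95 in Hba-x. CACCC or its reverse complement was found in 52.1% of 32536 RefSeq promoters within 250 bases before the start, CCAAT in 33.8%, TATAA in 22.7% and GATAA in 22.5%. In Hbb-y no exact TATAA was found within 250 bases, and variant forms of the elements were not searched. GATAA lay there on the opposite strand 162 bases before the start, outside the stretch shown. In Hba-x no CCAAT was found, and GATAA lay 107 bases before the start. In Hbb-bt and Hba-a1 GATAA lay 204 and 182 bases before the start, outside the stretches shown. Over the same 250 bases, Hba-a1 and Hba-a2 shared a run of 247 identical bases, so 1 of them stands for both, whereas the longest run shared by Hba-a1 and Hba-x was 10 bases and that of Hbb-y and Hbb-bt was 8. GACAAGATA, a core known to be bound by the first zinc finger domain of EVI1, was found in 0.104% of promoters and in none of the 6 globin promoters searched (these 5 and Hbb-bs). Promoters of Hbb-bh1, Hbb-b1 and Hbb-b2 were not analysed here.

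Array medians ran from 5.11 to 5.14 on the log2 scale, and Pearson's r across probe sets was 0.995 within EGFP-negative, 0.989 within EGFP-positive and 0.968 to 0.969 between groups. None of the 3 Mecom probe sets passed the threshold. Whether they can bind the vector's EVI1 transcript is not known here, so they check no label. The log2 excess of 3′ over 5′ signal, a measure of RNA quality and amplification, was larger with EGFP. For Actb it was 0.80 ± 0.05 (SD, n = 3) without and 1.00 ± 0.03 with EGFP, and for Gapdh 0.82 ± 0.02 and 1.06 ± 0.04. It moved with the groups beside every result below, and its part in them was not tested. Each array holds a whole sorted fraction, so more cells of a type and more RNA per cell cannot be told apart.

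Of the 11 globin probe sets, 6 passed the threshold as higher in EGFP-positive arrays (limma, Benjamini-Hochberg adjusted p under 0.05), where 11.6% of all probe sets did. The same 6 had every EGFP-positive array above every EGFP-negative array, which was so for 20.4% of all probe sets, and the groups of the remaining 5 overlapped. Nothing is read from these shares, since the contrast chose the family. None was lower. The member differences ran from 0.11 to 7.44 on the log2 scale with a median of 0.51, but 5 of the 11 probe sets had both group means under 3.61, the highest value of any bacterial control probe set on any array, which serves as a background ceiling, and only 2 lay above it on all 6 arrays.

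**Figure D1:**
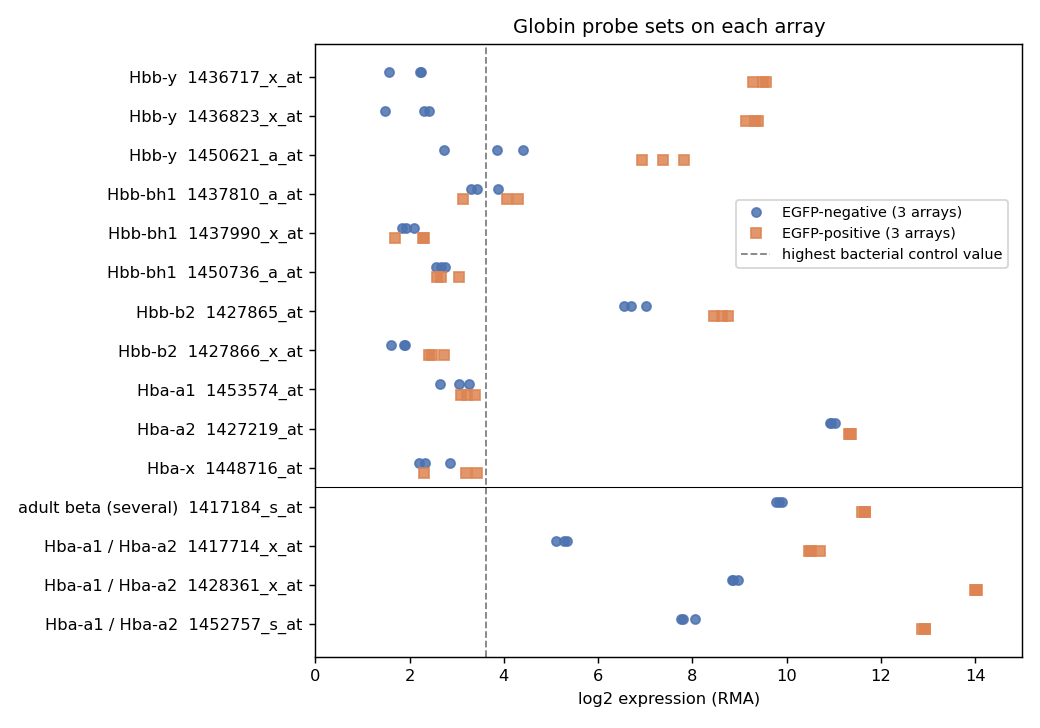
log2 expression of the 11 member probe sets (above the line) and the 4 probe sets of several adult globins (below it), 1 point per array, circles for EGFP-negative and squares for EGFP-positive, with the background ceiling of 3.61 dashed. Hbb-y and the 3 Hba-a1/Hba-a2 probe sets show the widest gaps, while Hba-x and all but 1 Hbb-bh1 probe set stay under the dashed line in both groups.

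Hbb-y, the epsilon-like embryonic beta chain gene, rose at all 3 of its probe sets. Probe set 1436717_x_at read 2.25, 2.22 and 1.57 on the EGFP-negative arrays and 9.56, 9.51 and 9.29 on the EGFP-positive arrays. All 3 EGFP-negative values lay among the bacterial controls, and the groups were far apart. The difference was 7.44 (SE 0.20) as measured and 5.84, or at least 57.3-fold, with the EGFP-negative arrays set to the ceiling. With all values under the ceiling set to it, this rise ranked 4 among the 45037 probe sets.

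Probe set 1436823_x_at of Hbb-y read 2.40, 2.30 and 1.47 on the EGFP-negative and 9.38, 9.33 and 9.14 on the EGFP-positive arrays, a difference of 7.23 (SE 0.25) and at least 51.1-fold. With the ceiling its difference was 5.68 and ranked 7. The remaining set, 1450621_a_at, read 4.40, 3.86 and 2.72 on the EGFP-negative and 7.38, 7.82 and 6.94 on the EGFP-positive arrays, a difference of 3.72 (SE 0.45), or at least 10.7-fold with its 1 array under the ceiling set to it. This probe set separated the groups as well, with a smaller difference and a wider spread (SD 0.86 and 0.44, n = 3), and with the ceiling it ranked 89. In both groups the array numbered 3 read lowest at every Hbb-y probe set, and leaving out any 1 array kept the differences between 7.22 and 7.56, 6.94 and 7.40, and 3.25 and 4.09. The x before at in the names of the first pair marks probe sets whose probes can also bind related sequences. The remaining set carries an a there instead. Cross-hybridisation between globins was not tested.

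Hbb-bh1, the other beta-like gene of primitive red cells in the same cluster as Hbb-y, was near background in both groups. Its brightest probe set, 1437810_a_at, read 3.43, 3.88 and 3.31 on the EGFP-negative and 3.13, 4.30 and 4.06 on the EGFP-positive arrays, and the groups overlapped (difference 0.29, SE 0.32). At 1437990_x_at the values were 1.93, 1.84 and 2.08 against 1.68, 2.29 and 2.31, and at 1450736_a_at 2.56, 2.66 and 2.75 against 2.58, 3.04 and 2.66, all under the ceiling. None of the 3 passed the threshold, and for the dim pair no fold can be given. The mean difference of the Hbb-y sets exceeded that of the Hbb-bh1 sets by 5.95 (SE 0.43 over arrays, n = 3 per group), or by 4.88 with values below the ceiling raised to it.

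Hba-x, the zeta chain gene that pairs with the embryonic beta-like chains, also stayed under the ceiling. Its single probe set, 1448716_at, read 2.86, 2.32 and 2.20 on the EGFP-negative and 3.42, 3.19 and 2.31 on the EGFP-positive arrays. The groups overlapped, the difference of 0.51 (SE 0.32) did not pass the threshold, and a value under the ceiling does not show that the transcript is absent.

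Both probe sets annotated to Hbb-b2 (beta-minor), an adult beta gene, read higher in EGFP-positive cells. Which adult beta transcripts they bind in cells of C57BL/6J background was not tested. The bright one, 1427865_at, read 6.55, 6.71 and 7.01 on the EGFP-negative and 8.47, 8.75 and 8.62 on the EGFP-positive arrays. Every array lay well above the ceiling and the groups did not overlap, with a difference of 1.86 (SE 0.15), or 3.62-fold. At 1427866_x_at the values were 1.88, 1.61 and 1.91 against 2.73, 2.47 and 2.41. These groups were apart too (difference 0.74, SE 0.14), but all 6 arrays lay under the ceiling, so no fold is given.

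The probe set 1417184_s_at is annotated to Hbb-bt, Hbb-bs, Hbb-b2 and Hbb-b1 together and is the only one here for Hbb-b1 and Hbb-bt, the beta-major type genes. It read 9.83, 9.76 and 9.90 on the EGFP-negative and 11.60, 11.66 and 11.67 on the EGFP-positive arrays, a difference of 1.81 (SE 0.09), or 3.51-fold. The adult beta signal was thus well above background on the EGFP-negative arrays, unlike that of Hbb-y. The difference at 1417184_s_at was close in size to that at 1427865_at.

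The adult alpha genes gave different answers at different probe sets. The set annotated to Hba-a2 alone, 1427219_at, was bright and nearly level, with 10.92, 11.02 and 10.93 on the EGFP-negative and 11.34, 11.31 and 11.36 on the EGFP-positive arrays. The groups did not overlap and the difference of 0.38 (SE 0.09), or 1.30-fold, passed the threshold. That call ended without any 1 array other than EGFP-positive replicate 2 (difference 0.36 to 0.42 over all 6 omissions). The set annotated to Hba-a1 alone, 1453574_at, read 3.26, 2.64 and 3.05 against 3.21, 3.08 and 3.38, under the ceiling on all arrays, with overlapping groups (difference 0.24, SE 0.18).

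The 3 probe sets annotated to Hba-a1 and Hba-a2 together differed far more. Probe set 1428361_x_at read 8.85, 8.83 and 8.98 on the EGFP-negative and 13.98, 14.01 and 14.03 on the EGFP-positive arrays, a difference of 5.12 (SE 0.09), or 34.8-fold. Probe set 1452757_s_at read 7.80, 7.76 and 8.06 against 12.87, 12.93 and 12.93 (difference 5.04, SE 0.11; 32.9-fold), and 1417714_x_at read 5.28, 5.10 and 5.34 against 10.48, 10.71 and 10.51 (difference 5.33, SE 0.12; 40.3-fold). All 3 lay above the ceiling on every array and ranked 15, 18 and 11 among the rises of all 45037 probe sets with the ceiling applied. Why the Hba-a2 set moved so much less than the shared ones was not tested, since the probe sequences were not used here.

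**Figure D2:**
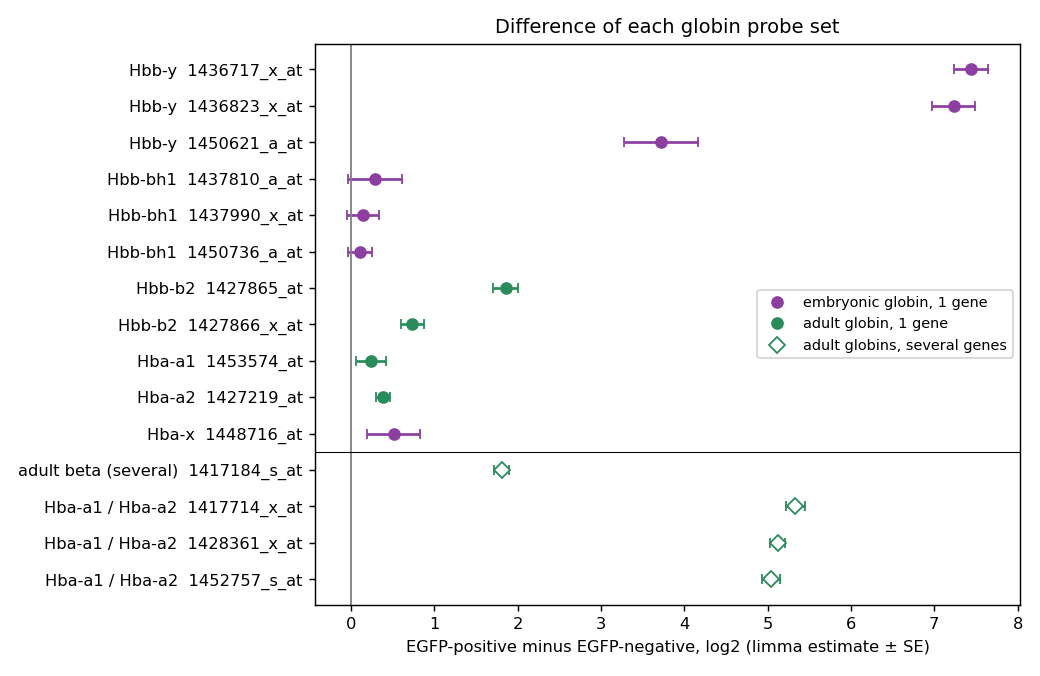
EGFP-positive minus EGFP-negative difference of each globin probe set on the log2 scale, as the limma estimate with its standard error (3 arrays per group). Filled purple points are embryonic and filled green points adult single-gene sets, and open diamonds are sets of several adult globins. Hbb-y lies between 3.72 and 7.44 and the shared alpha sets between 5.04 and 5.33, while Hbb-bh1, Hba-x, Hba-a1 and Hba-a2 lie at 0.51 or less.

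Embryonic and adult globins did not form 2 separate blocks. Averaged over probe sets, the 7 embryonic sets differed by 2.78 (SE 0.20) and the 4 adult sets by 0.80 (SE 0.07), a gap of 1.97 (SE 0.25 over arrays). The Hbb-y sets were the only embryonic ones past the threshold. With the 4 sets of several adult globins added to the adult side the gap was 0.21 (SE 0.24), or -0.27 with the ceiling applied, and with only the sets whose names end in plain at, which leaves Hba-x as the sole embryonic gene, it turned to -0.32.

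Within each chain the order depended on the probe sets. On the beta side, the embryonic sets differed by 1.86 more (SE 0.28) than the adult Hbb-b2 sets, and the mean of the Hbb-y sets by 4.32 more (SE 0.39) than the shared adult beta set (3.17 with values below the ceiling raised to it). On the alpha side, the gap between Hba-x and the adult single-gene sets was 0.20 (SE 0.41), and -0.19 with the ceiling. Against the shared adult alpha sets it was -4.65 (SE 0.42), and -5.16 with the ceiling, under which Hba-x lay on all arrays. Between the chains, the shared adult alpha sets differed by 3.35 more (SE 0.04) than the shared adult beta set. No order holds between Hbb-y and the shared adult alpha sets. The difference of the 3 Hbb-y sets minus theirs was 0.97 (SE 0.41) as measured and -0.18 (SE 0.17) with values below the ceiling raised to it.

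Of 16 measured genes that act at active globin genes, 11 rose in EGFP-positive cells, 0 fell and 5 did not pass (limma over 18192 genes; 16% of all genes rose and 17.2% fell), with a list median of 0.57 against 0.02 over all genes. Zfpm1, the GATA1 cofactor FOG1, went from 6.94 ± 0.10 (SD, n = 3) to 8.78 ± 0.22 (adjusted p = 0.000182), and Tal1, which binds beside GATA1, from 9.90 ± 0.05 to 11.48 ± 0.09 (adjusted p = 7.74e-05). Gata1 itself rose by 1.38 (SE 0.08), from 10.13 ± 0.01 to 11.51 ± 0.06, and Klf1, the activator of the adult beta genes, by 1.33 (SE 0.10), from 5.83 ± 0.11 to 7.16 ± 0.10. The TAL1 complex corepressor gene Cbfa2t3 (1.08), the TAL1 relative Lyl1 (1.02) and the looping factor gene Ldb1 (0.69) rose as well. Klf2, which takes part in embryonic beta-like globin expression, rose by 0.59, and the bZIP genes Nfe2 and Mafg, which act at the beta locus control region, rose by 0.55 and 0.50. Mafk passed with 0.39, but omission of any array except EGFP-positive replicate 3 ended its call (adjusted p up to 0.0938). Lmo2 (0.01), Tcf3 (0.04), Usf1 (0.01), Usf2 (0.24) and Nfya (0.08) did not pass.

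Of 21 measured genes listed as embryonic globin repressors, 10 fell, 3 rose and 8 did not pass (median -0.25). Over all genes 17.2% fell and 16% rose. Prmt5, an arginine methyltransferase, fell from 8.58 ± 0.06 to 7.07 ± 0.17 (-1.51, adjusted p = 0.0002), and Sox6, a partner of BCL11A, from 5.38 ± 0.28 to 3.96 ± 0.39 (-1.43, at least 2.64-fold). Myb fell from 12.88 ± 0.01 to 12.07 ± 0.05 (-0.82, adjusted p = 0.000459), Mbd3 (-0.84), the maintenance methyltransferase gene Dnmt1 (-0.64) and the demethylase gene Kdm1a (-0.38) fell as well. The deacetylase gene Hdac2 (-0.53) passed, but not without EGFP-negative replicate 2 or without replicate 3 of that group (adjusted p up to 0.0761). Calls of Nr2c2 (-0.32) and Gatad2a (-0.25) ended without most single arrays (5 and 6 of 6). Bcl11a, the main silencer of the human fetal and mouse embryonic beta-like genes, went from 9.80 ± 0.05 to 9.42 ± 0.12 (-0.38, SE 0.09, adjusted p = 0.0224). Its call was lost when any single array but EGFP-positive replicate 3 was omitted (adjusted p up to 0.0838), and with the mean of its probe sets (0.105). Mta2 (0.50) and Bach1 (0.43) rose, Rcor1 (0.34) passed with all arrays but not without 5 of the single arrays (adjusted p up to 0.0745), and Zbtb7a (-0.13), a second silencer of fetal globin, and Nr2c1 (0.23) did not pass. Without EGFP-negative replicate 2, or without replicate 3 of that group, 8 of these genes passed in place of 13.

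**Figure D3:**
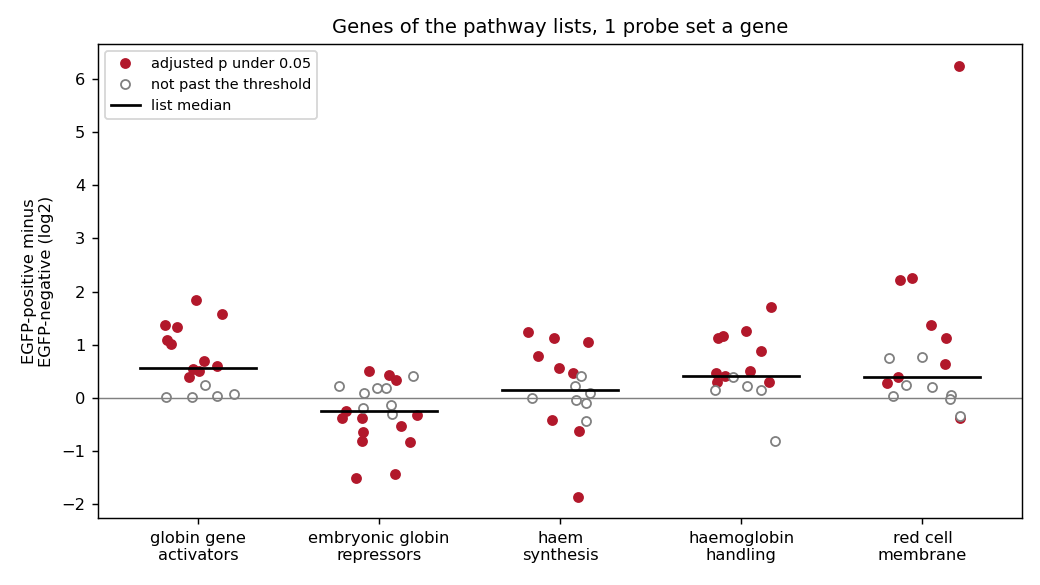
EGFP-positive minus EGFP-negative difference on the log2 scale of each gene in 5 lists, 1 probe set a gene, red where the adjusted p was under 0.05 and open grey otherwise, with horizontal lines at the list medians. The list of globin gene activators, which also holds the corepressor gene Cbfa2t3, lies at or above 0 with a median of 0.57. Embryonic globin repressors centre on -0.25.

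The haem pathway, which supplies the prosthetic group of globin, moved in both directions. Of 16 measured genes, 6 rose and 3 fell (median 0.15), where 16% of all genes rose and 17.2% fell. Its entry enzymes fell: Alas2, the red cell form of aminolevulinate synthase, from 5.82 ± 0.09 to 3.96 ± 0.14 (-1.86, adjusted p = 9.03e-05), and Alas1, the general form, from 9.40 ± 0.03 to 8.78 ± 0.14 (-0.62, adjusted p = 0.00382). Fech, which inserts the iron, rose from 10.23 ± 0.15 to 11.37 ± 0.10 (1.14, adjusted p = 0.000547), and the mitochondrial transporter gene Abcb10 from 11.67 ± 0.07 to 12.92 ± 0.04 (1.25, adjusted p = 0.000131). Abcb6 (1.05) and Alad (0.79) rose too. Urod (0.47) and Clpx (0.56) passed, but neither did without any 1 of EGFP-negative replicates 1, 2 and 3 or without EGFP-positive replicate 2 (adjusted p up to 0.0939 and 0.0732), and Clpx also not without EGFP-positive replicate 1. Tmem14c, a porphyrinogen transporter gene, fell by 0.41. Uros, Cpox, Ppox, Slc25a38, Slc25a37, Iscu and Glrx5 did not pass, with differences between -0.43 and 0.40.

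Genes that handle haemoglobin and its breakdown products rose or did not pass. Of 15 measured, 10 rose and 0 fell (median 0.42), where 16% of all genes rose and 17.2% fell. Bpgm, whose product makes the phosphoglycerate that lowers haemoglobin's oxygen affinity, went from 8.95 ± 0.07 to 10.66 ± 0.12 (1.72, adjusted p = 8.2e-05). Hmox1, which opens the haem ring, rose by 1.17, Blvrb, the biliverdin reductase of red cells, by 1.27 (adjusted p = 0.000115), and the haem transporter gene Slc48a1 by 1.13. Nfe2l2, the regulator of antioxidant genes, rose by 0.88, catalase (Cat) by 0.46 (adjusted p = 0.0546 without EGFP-negative replicate 2) and the haem-regulated kinase gene Eif2ak1 by 0.42. Cyb5r3, Flvcr1 and Prdx2 passed with all arrays, but each lost its call without any 1 of 5 of the 6 arrays (adjusted p up to 0.115, 0.129 and 0.12). Ahsp, the chaperone of free alpha chains, was not analysed here.

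Red cell membrane genes ranged widely. Of 17 measured, 8 rose and 1 fell, Cd47 (-0.38), with a median of 0.40. Over all genes 16% rose and 17.2% fell. Slc4a1, the anion exchanger band 3, read 3.51, 2.88 and 2.81 on the EGFP-negative and 9.14, 9.21 and 9.60 on the EGFP-positive arrays, and was at least 52.2-fold higher (6.25, SE 0.22, adjusted p = 2.37e-05). With the mean of its 3 probe sets its difference was 3.98. Aqp1, the water channel, rose by 2.21 (SE 0.08) and Kel, the Kell blood group gene, by 2.26 (at least 4.66-fold). Ank1, the ankyrin that ties band 3 to the membrane skeleton, rose by 1.37, or 0.61 with the mean of its 4 probe sets. In contrast, Epb42 (0.20), Sptb (-0.34) and Xk (0.76) did not pass, and Rhag passed but was under the ceiling in both groups. The calls of Rhd (0.29) and Ermap (0.40) ended when any of 6 and of 3 single arrays was left out (adjusted p up to 0.11 and 0.0855).

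Of the other members of the globin superfamily, myoglobin (Mb, 0.19), cytoglobin (Cygb, 0.36) and neuroglobin (Ngb, 0.09) were measured, and 0 of 3 passed the threshold (limma; 0 at an unadjusted p under 0.05 as well).

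Of the 4 nearest measured genes on each side of the alpha cluster, 4 of 8 rose and 1 fell. Among all genes 16% rose and 17.2% fell. Nprl3, whose introns hold the enhancers of the alpha genes, read 7.18, 7.37 and 7.42 on the EGFP-negative and 8.23, 8.50 and 8.35 on the EGFP-positive arrays (1.04, SE 0.11, adjusted p = 0.000874). Its neighbour Mpg, a DNA glycosylase gene, rose by 0.94 (SE 0.09), and Rhbdf1, an inactive rhomboid protease gene, went from 5.34 ± 0.21 to 8.95 ± 0.09, a 12.2-fold rise (3.61, SE 0.13, adjusted p = 2.37e-05). Snrnp25, next beyond Rhbdf1, did not pass (-0.16). On the other side Sh3pxd2b rose by 0.59 and Stk10 fell by 0.70, while Ubtd2 (0.01) and Efcab9 (0.11, under the ceiling in both groups) did not pass.

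**Figure D4:**
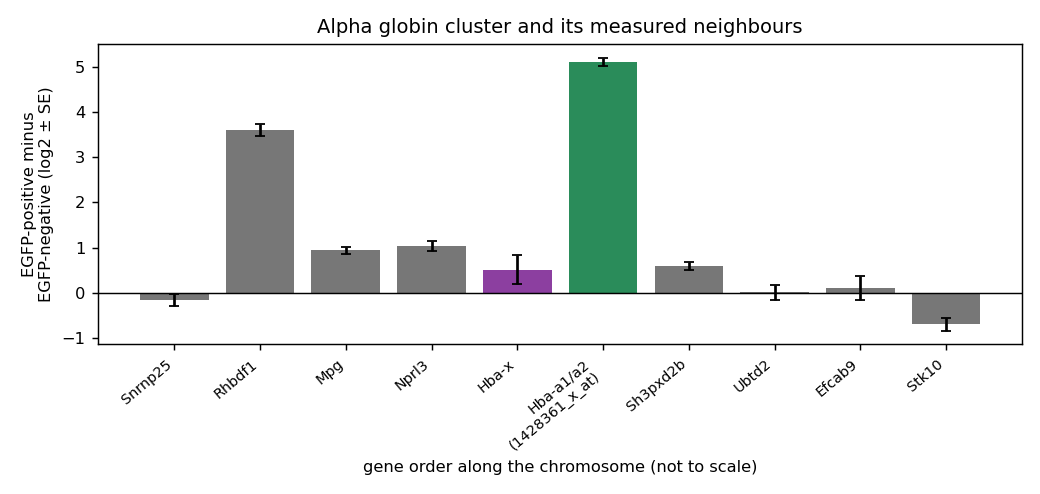
EGFP-positive minus EGFP-negative difference on the log2 scale (bars, limma estimate with standard error) of Hba-x, 1 shared Hba-a1/Hba-a2 probe set and the 4 nearest measured genes on each side, in gene order with no distance scale. The shared alpha set stands at 5.12 and Rhbdf1 at 3.61, while Hba-x between them and the alpha genes stands at 0.51.

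Another list holds genes beside the alpha cluster in mouse or human, 5 of them the same. It gave 5 rises and 0 falls among 8, where 16% of all genes rose and 17.2% fell. It added a rise of Fam234a (1.46), which lies on another mouse chromosome, and Luc7l, also elsewhere, did not pass at its brightest probe set (0.15) but fell at 1 of its 6 probe sets. Around the beta cluster the 8 nearest measured genes are 7 olfactory receptor genes and Ubqln5. All 8 were under the ceiling in both groups, so a change could hardly be seen there, and 0 passed (limma; 1 at an unadjusted p under 0.05). Gene order was taken from RefSeq.

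Markers of blood cell types moved with the same contrast, in which 16% of all genes rose and 17.2% fell. Of 13 measured erythroid markers, 9 rose and 1 fell, with a mean log2 level of 5.71 to 5.80 on the EGFP-negative and 6.83 to 6.94 on the EGFP-positive arrays. Epor, the erythropoietin receptor gene, rose by 1.71 and Car2 by 0.79, whereas Tfrc (0.09; 0.57 and past the threshold with the mean of its 3 probe sets, adjusted p = 0.00189), Car1 (0.48) and Epb42 did not pass, and Epb42 and Rhag were under the ceiling in both groups. Of 7 neutrophil markers 7 fell (mean level 11.27 to 11.42 against 8.51 to 8.70), as did 4 of 4 mast cell markers (11.20 to 11.24 against 8.67 to 8.82). The neutrophil marker S100a8 (-0.30) lost its call without any 1 of 5 arrays (adjusted p up to 0.0816). Progenitor markers lay at 10.08 to 10.12 and 9.16 to 9.34, with 4 of 6 lower, among them Cd34 (-2.75) and Kit (-0.98), and 1 higher, Spi1 (0.51). Megakaryocyte markers rose at 4 of 6 (7.60 to 7.71 against 8.73 to 8.91), and of 6 macrophage markers 3 rose, led by Spic (3.66), a factor of haem-recycling macrophages, and 3 fell, led by Vcam1 (at least 6.40-fold lower; 2 of its 3 EGFP-positive arrays were under the ceiling). Endothelial markers rose at 3 of 5 (4.26 to 4.33 against 5.64 to 5.90), led by Tek (at least 43.9-fold), with 1 lower, Pecam1. Cdh5 and Kdr rose from under the ceiling, by at least 1.3-fold and 1.68-fold, and Emcn was under it in both groups. Among B cell markers 1 of 3 rose, Cd79b (0.81), with a mean level of 4.68 to 4.95 against 4.94 to 5.19, and among T cell markers 1 of 3 fell, Cd3e (at least 3.75-fold lower), with 3.93 to 4.18 against 3.25 to 3.48. The part of a changed cell mix in the globin values was not tested.

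The genes whose profile over the 6 arrays lay nearest to Hbb-y 1436717_x_at, by Euclidean distance of values centred on their own mean, were Esrp1 (distance 1.21), a splicing regulator of epithelia, Slc6a20a (1.32), an amino acid transporter gene, Slc4a1 (1.63), Mmp9 (1.69), a gelatinase gene, and Gsdmc2 (2.08), a gasdermin gene. All 5 rose by 5.79 to 7.15 on the log2 scale, and 4 of them, all but Mmp9, were under the ceiling on all 3 EGFP-negative arrays. The size of the difference between the groups enters this distance. Slc4a1 was the only one of the 5 that is also on the erythroid marker and red cell membrane lists.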

How the data were processed

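RNA of 6 sorted samples was hybridised to Affymetrix mouse expression arrays after 3′-primed amplification, per the labels' protocols. The values deposited by the authors are on a log2 scale, 1 per probe set and array, from RMA per the submitters' processing notes (version not stated there). Neither scanner files nor probe sequences entered the work. Of 45101 rows, 64 were controls. Of the other 45037 probe sets, GEO's platform annotation gave 34945 a single gene, 932 several and 9160 none in the table used. Arrays carry no read depth, and 3 arrays a group limit the precision. The highest value of 27 bacterial control probe sets, 3.61, served as a background ceiling: arrays of the dimmer group below it were set to it and the fold is a lower bound, and no fold is given where both group means lay below it.

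EGFP-positive minus EGFP-negative was estimated by lmFit and eBayes of limma 3.58.1 under R 4.3.3 (all 6 arrays, no covariate, two-sided, Benjamini-Hochberg adjustment over 45037 probe sets, threshold 0.05). Genes outside the family were fitted over 18192 genes with the brightest probe set of each. The scripts were tested on simulated data. Alternatives tried were a replicate block, 2 other scalings, eBayes with trend or robust options, array weights, a filter at the ceiling, the mean of a gene's probe sets and leaving out each array. The addition of 4 probe sets of several adult globins, and ranks and set differences with the ceiling applied, were chosen after seeing the data. Members, lists and tests were chosen with earlier results of these data known. Every member probe set is named. Of the lists, at least the 2 genes with the smallest p in each direction are named, and neighbours and most similar genes follow fixed numbers, 4 on each side and 5. Deviations of same-numbered arrays correlated no more closely (-0.02 to 0.01) than those of differently numbered arrays (-0.03 to 0.02). With so few arrays a group, this cannot decide whether same-numbered samples were paired, and the labels do not say.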

Additional observations from a re-analysis of the deposited data

How the results depend on the processing

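The count of globin probe sets past the threshold stayed between 5 and 6 under the replicate block, the other scalings and the eBayes options. It did so too with array weights, with the filter at the ceiling and with 1 array left out. Under these alternatives each member's difference moved by less than 1 SD of its arrays. With values below the ceiling raised to it, Hbb-y 1436717_x_at moved further, from 7.44 to 5.84, and 1436823_x_at from 7.23 to 5.68. The replicate block left 5, losing Hba-a2 1427219_at, and of 18192 genes 4900 passed with it. The gap between embryonic and adult globins of 1.97 depended most on which probe sets entered, since each alternative changes which sets or values are averaged. It was 3.55 with the filter at the bacterial ceiling and 1.62 when values below that ceiling were raised to it. It was 0.21 with the 4 shared adult sets added (chosen after seeing the data) and -0.32 with only sets ending in plain at. The filter kept Hbb-y 1436717_x_at and 1436823_x_at through their EGFP-positive arrays alone. It dropped Hba-x and the dim Hbb-bh1 pair, so nothing is read from the wider gap. Hbb-y minus the shared adult alpha sets turned from 0.97 to -0.18 with the ceiling, an alternative also chosen after seeing the data. Leaving out 1 array kept the gap between 1.76 and 2.09. Of the lists, embryonic globin repressors ran from 8 to 11 genes past the threshold when 1 array was left out, against 13 with all arrays. No other list moved by over 1.5 times. With the filter at the ceiling 5 of the 11 member probe sets dropped out and have no value. Between 45 and 54 listed genes passed without any 1 array.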
